A study of Mus musculus with 9 samples.

Results

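The genes described here encode receptors through which T cells sense chemokines and lipid or other small-molecule cues and move toward or away from them. They form a list of 37 receptor genes given by name, and 36 of them had a probe set of their own on the array, out of 22180 named genes. Ptgdr2 shared its only probe set with another gene and is given no value. The 37 genes comprised 6 inflammatory CC chemokine receptors, 6 receptors for homing, 6 CXC, CX3C and XC receptors, 5 atypical receptors, 5 sphingosine 1-phosphate (S1P) receptors, and 9 receptors for other lipids, metabolites or ligands.

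Total RNA on 9 arrays came from mouse Th17 cultures, that is, CD4 T cells grown under conditions that induce IL-17-secreting T helper cells. Of the 9 arrays, 3 were of cells from SRG3 cKO mice, 3 from RORgt KO mice and 3 from WT mice. SRG3, encoded by Smarcc1, belongs to the core of the Swi/Snf complex, which remodels chromatin, and RORgt is the lineage transcription factor of Th17 cells. In all 3 groups, naive T cells were sorted from spleen as CD4+CD25-CD44lowCD62Lhigh. They were grown for 60 h on plate-bound anti-CD3 and anti-CD28 (10 µg/ml each). The medium held TGF-β1 at 1 ng/ml, IL-6 at 30 µg/ml as the labels write it, and anti-IL-4 and anti-IFN-γ at 2 µg/ml each. The labels call SRG3 cKO cells SRG3-deficient and RORgt KO cells RORgt-deficient. The Cre driver of the SRG3 deletion, the alleles and the age of the mice are not given in the sources used here. The labels call arrays of a genotype biological replicates and do not say whether each had a mouse or culture of its own. The p-values therefore cover only the spread from array to array.

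Chemokine receptors are G protein-coupled receptors that signal mainly through Gαi to phosphoinositide 3-kinase γ and the actin cytoskeleton, and so turn a chemokine gradient into directed movement. In T cells, CCR7 and S1PR1 work in opposition: CCR7 holds cells in lymph nodes and S1PR1 lets them leave along the S1P gradient. Activated cells gain inflammatory receptors, and CCR6, the receptor of CCL20, is the one most closely tied to Th17 cells.

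Values are log2 probe set intensities, on which a step of 1 is a doubling, and all differences are differences of log2 means. A gene is said to rise or fall where limma's moderated test gave a Benjamini-Hochberg adjusted p under 0.05 over all 22180 genes. The median of each array lay between 7.12 and 7.14, and 24 of the 36 receptor genes had a mean at or above the median of all values (7.13). A mean below the 25th percentile (6.12), where a probe set may hold little beyond background, was found for 5. A principal component analysis, whose first axis held 28.8% of the variance, set 1 array of each genotype apart. SRG3 cKO array 1 scored 3.98 on it and its other arrays -3.27 and -2.06, RORgt KO array 3 scored 3.22 and its other arrays 9.82 and 12, and WT array 1 scored -1.38 and its other arrays -10.5 and -11.8. Smarcc1 was at 8.47, 8.79 and 8.62 in the SRG3 cKO arrays, against 10.13, 10.32 and 10.39 in the WT arrays (log2 difference -1.65, SE 0.09, limma adjusted p = 0.000207). Il17a, the Th17 signature cytokine, differed from WT by -2.19 in SRG3 cKO cells and by -3.85 in RORgt KO cells (limma adjusted p = 0.00478 and 0.000143). The RORgt KO labels were not checked through the targeted gene.

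The promoter sequences of 3 of the 5 receptor genes that passed the test are shown first. Ccr6, Cxcr3 and Gpr18 each changed in a different way between the genotypes. Gpr83, which also passed and changed in its own way, is not printed, and Ccr7 had no promoter window. The sequences are bases directly upstream of the annotated gene, from RefSeq on build GRCm38.p6, written 5′ to 3′ on the gene's own strand. The Ccr6 window is chr17:8235793-8236040 on the plus strand, the Cxcr3 window chrX:101734148-101734397 on the minus strand, and the Gpr18 window chr14:121915889-121916138 on the minus strand. Capitals mark matches on either strand to AGGTCA, the core motif bound by ROR factors, with its 5′ flank where that reads AANT.
Ccr6: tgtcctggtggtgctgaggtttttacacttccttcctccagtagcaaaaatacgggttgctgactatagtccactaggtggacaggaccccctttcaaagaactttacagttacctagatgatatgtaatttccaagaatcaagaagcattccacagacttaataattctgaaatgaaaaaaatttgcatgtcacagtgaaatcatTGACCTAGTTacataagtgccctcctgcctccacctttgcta
Cxcr3: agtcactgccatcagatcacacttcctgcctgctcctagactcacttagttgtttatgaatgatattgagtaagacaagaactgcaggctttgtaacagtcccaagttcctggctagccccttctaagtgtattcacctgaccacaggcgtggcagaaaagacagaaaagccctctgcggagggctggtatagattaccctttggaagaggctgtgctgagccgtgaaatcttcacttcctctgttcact
Gpr18: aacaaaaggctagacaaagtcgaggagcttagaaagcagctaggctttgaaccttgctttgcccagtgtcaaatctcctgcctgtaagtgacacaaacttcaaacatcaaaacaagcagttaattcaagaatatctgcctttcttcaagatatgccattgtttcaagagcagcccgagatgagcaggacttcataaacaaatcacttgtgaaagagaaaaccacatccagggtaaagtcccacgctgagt

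The table of promoters held 36 windows for 32 of the 36 measured receptor genes. Over the 250 bases before the start, AGGTCA was present in 14% of all 32851 promoters and in those of 5 receptor genes, namely Ackr1, Ccr6, Cxcr2, P2ry10 and S1pr2. The longer form with AANT directly before the core motif, which was added after the promoters were seen and contains the shorter one, was present in 58 promoters (0.177%). Among the receptor genes only Ccr6 held it, as AACTAGGTCA on the reverse strand, 44 to 35 bases before the start. These positions are counted from the start in the promoter table, and the printed Ccr6 window ends 2 bases before that start, where the annotated gene begins. A match describes the letters in the window and shows no binding. The other motifs searched on both strands were CACCC (KLF factors), TGANTCA (AP-1), GGG and CC spaced by any 5 bases (NF-κB) and GATAA (GATA factors). CACCC was in 52% of all promoters and in those of 20 receptor genes, Gpr83 among them. TGANTCA was in 6.75% and in 4 genes, the NF-κB motif in 45.8% and in 15 genes, Cxcr3 among them, and GATAA in 22.6% and in 9 genes. Ccr6 counts for both of these through matches in its other promoter, which is not printed, and the printed one held neither.

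Few of the receptor genes passed the test in either knockout. In SRG3 cKO cells against WT, 1 of 36 passed the test, Gpr83, which rose, where 0.523% of all genes passed (0.28% higher and 0.243% lower). With the array number as a block, that is, as a further term in the fit, 3 of 36 passed, where 0.879% of all genes did. In RORgt KO cells against WT, 3 of 36 passed without the block, where 1.04% of all genes did (0.694% higher and 0.343% lower). Ccr6 fell, and Ccr7 and Gpr18 rose. Between the knockouts, 3 of 36 differed, where 1.28% of all genes did (0.595% higher and 0.681% lower in SRG3 cKO cells). Ccr6 and Gpr83 were higher in SRG3 cKO cells and Cxcr3 was lower. In all, 5 receptor genes passed in at least 1 comparison without the block, and 8 with or without it. At an unadjusted p under 0.05 the counts without the block were 5, 12 and 11 receptor genes, where 11.2%, 12.7% and 11.1% of all genes passed.

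The median difference over the 36 genes was 0.03 in SRG3 cKO cells against WT, 0.07 in RORgt KO cells against WT and -0.05 between the knockouts, beside -0.01, 0.00 and 0.00 over all genes. The median absolute difference was 0.07, 0.12 and 0.09 in the same comparisons, beside 0.05 over all genes in each. In SRG3 cKO cells against WT the arrays of the groups did not overlap for 5 receptor genes, 4 higher and 1 lower, where this held for 13.6% of all genes (7.04% higher and 6.56% lower). In RORgt KO cells against WT it held for 11, 9 higher and 2 lower, beside 14.3% of all genes (6.9% higher and 7.35% lower). Between the knockouts it held for 10, 4 higher and 6 lower in SRG3 cKO cells, beside 14.6% of all genes (7.79% higher and 6.82% lower). The 9 values of a gene spanned less than 0.5 for 26 of the 36 genes. Both comparisons with WT share the 3 WT arrays, so their values stand side by side here and are not set against each other. The test of the difference between the knockouts is their direct comparison.

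**Figure D1:**
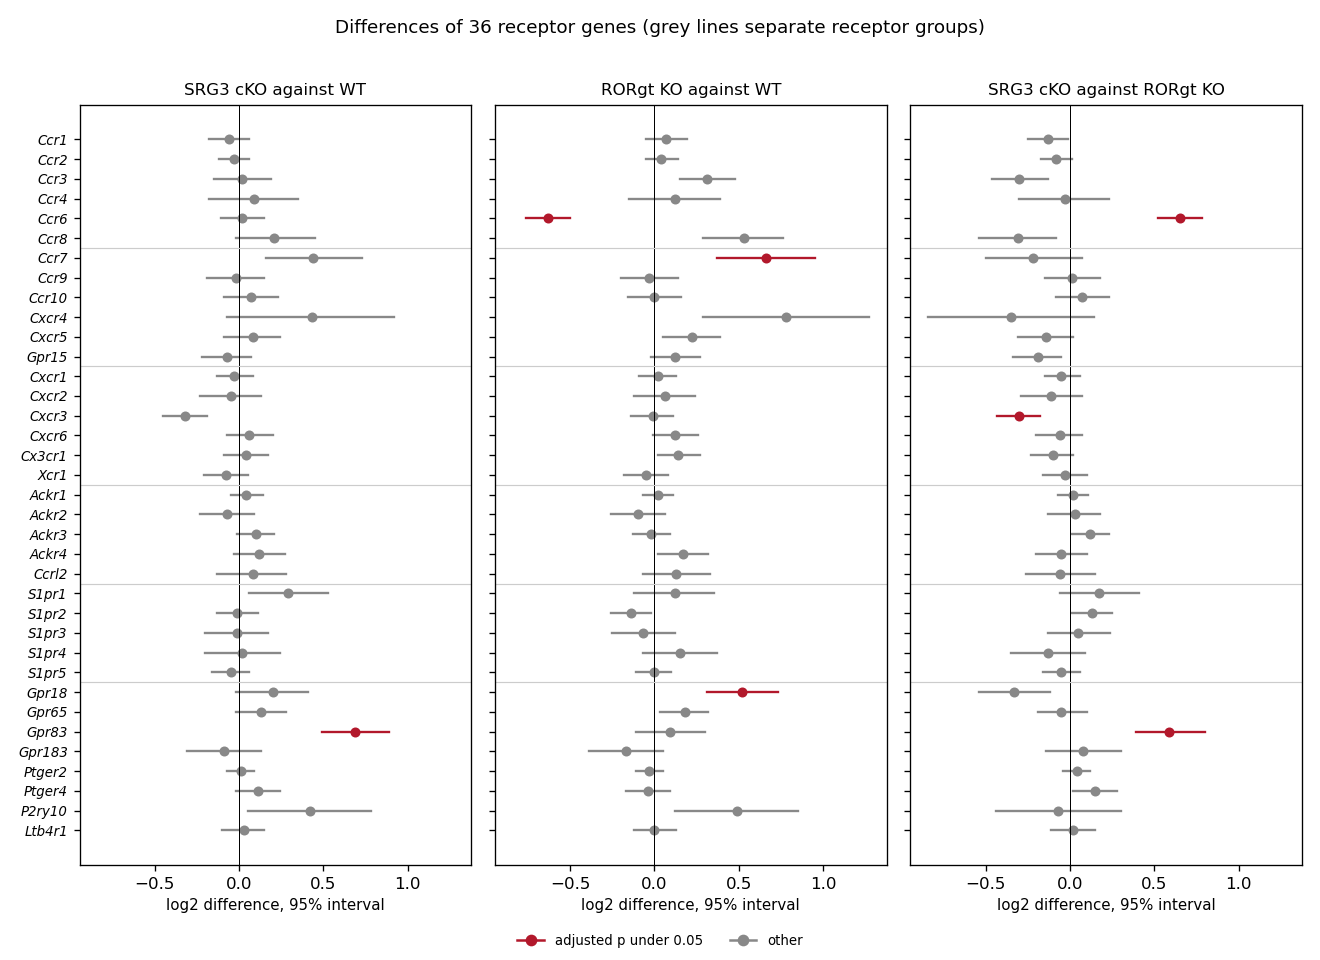
Log2 differences of the 36 receptor genes in the 3 comparisons, each the first-named genotype minus the second. Points are limma estimates from 3 arrays per group, bars are 95% intervals, red marks a limma adjusted p under 0.05 and grey lines separate the receptor groups. Most points lie close to 0, and the red ones are Gpr83 on the left, Ccr6, Ccr7 and Gpr18 in the middle and Ccr6, Cxcr3 and Gpr83 on the right.

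Among the inflammatory CC receptors, Ccr6 was lower in RORgt KO cells and close to WT in SRG3 cKO cells. Its level (probe set 17333066) was 8.97, 9.07 and 9.14 in the SRG3 cKO arrays, 8.44, 8.38 and 8.42 in the RORgt KO arrays, and 9.0, 8.98 and 9.16 in the WT arrays. All 3 RORgt KO arrays lay below all 6 others, and the SRG3 cKO and WT arrays overlapped. Ccr6 fell 1.55-fold in RORgt KO cells (8.41 ± 0.03) against WT (9.05 ± 0.09, SD, n = 3 arrays each), a log2 difference of -0.63 (SE 0.06, 95% interval -0.76 to -0.50, limma adjusted p = 0.00135). In SRG3 cKO cells (9.06 ± 0.09) the difference from WT was 0.02 (interval -0.11 to 0.15, limma adjusted p = 0.946). Compared directly, Ccr6 was 1.57-fold higher in SRG3 cKO cells than in RORgt KO cells (0.65, SE 0.06, interval 0.52 to 0.78, limma adjusted p = 0.000772). Both calls held whichever of the 9 arrays was left out, with adjusted p up to 0.0105 against WT and up to 0.0067 between the knockouts. In whole cultures, fewer cells that express a gene and less RNA per cell cannot be told apart.

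Ccr8, a receptor of CCL1 found on Th2 and regulatory T cells, stood close to the threshold in RORgt KO cells. It was at 8.69, 8.54 and 8.65 in the SRG3 cKO arrays, at 9.07, 9.0 and 8.75 in the RORgt KO arrays, and at 8.63, 8.28 and 8.33 in the WT arrays. The RORgt KO arrays lay above all others, though its array 3 (8.75) lay close to SRG3 cKO array 1 (8.69). The difference from WT was 0.53 in RORgt KO cells (SE 0.10, interval 0.29 to 0.76, limma adjusted p = 0.0524) and 0.21 in SRG3 cKO cells (limma adjusted p = 0.491). Without WT array 1 the limma adjusted p in RORgt KO cells was 0.0262, and without RORgt KO array 3 it was 0.0361. In the other 7 fits that left out 1 array it did not pass (limma adjusted p up to 0.219), and the difference was 0.46 to 0.63 over all 9. With the array number as a block the limma adjusted p was 0.0183, and other settings that called Ccr8 are given below. Ccr3, a receptor of eotaxins known from eosinophils, was dim throughout. Its level was 5.20, 5.17 and 5.03 in the SRG3 cKO arrays, 5.41, 5.31 and 5.57 in the RORgt KO arrays and 5.02, 5.14 and 5.19 in the WT arrays. The RORgt KO arrays were the highest, and the difference from WT was 0.31 (limma adjusted p = 0.105). Ccr1 (mean over all arrays 5.63) and Ccr2 (5.75), receptors best known from myeloid cells, were dim as well and differed by at most 0.13 in absolute value in any comparison, although the RORgt KO arrays of Ccr1 did not overlap with those of either other genotype. Ccr4, a receptor of skin and Th2 cell homing, was at 9.36 ± 0.13 in SRG3 cKO cells, 9.39 ± 0.15 in RORgt KO cells and 9.27 ± 0.23 in WT cells, with overlapping arrays.

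**Figure D2:**
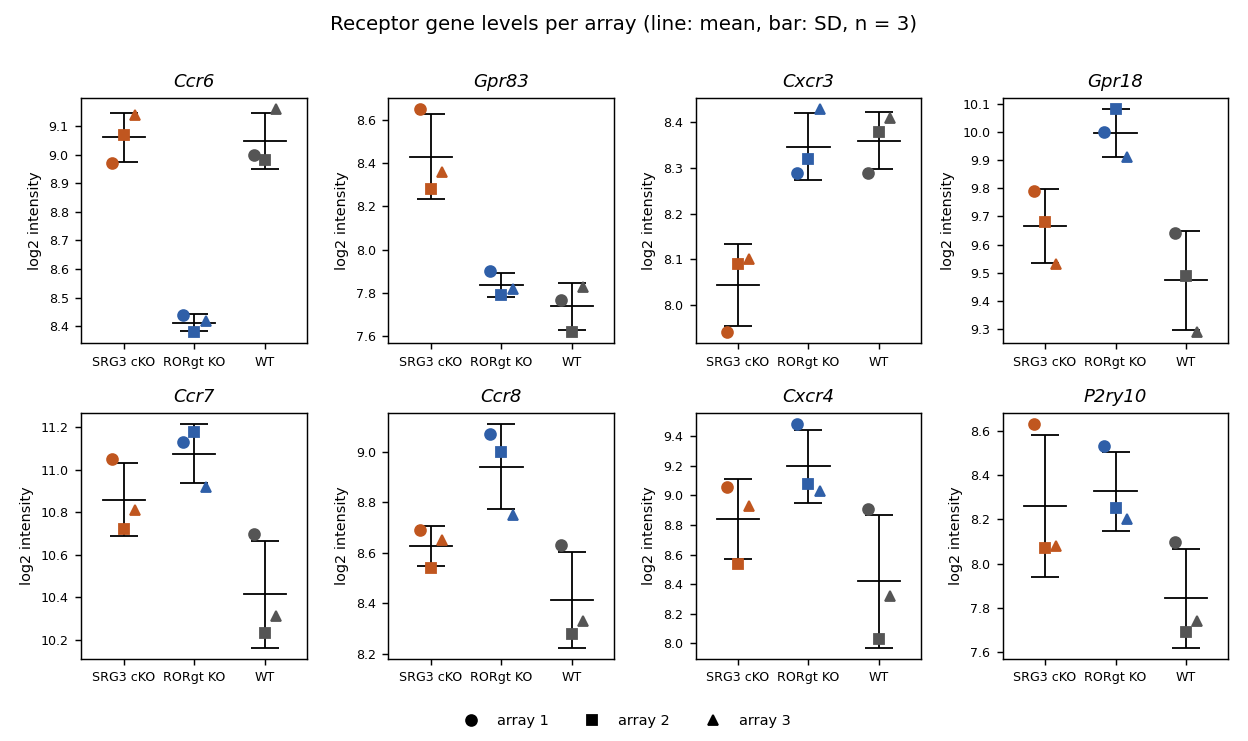
Log2 intensity of 8 receptor genes in each of the 9 arrays, by genotype, with array numbers as symbols, the group mean as a line and the SD as a bar (n = 3); each panel has its own axis, which does not start at 0. The RORgt KO arrays of Ccr6 lie between 8.38 and 8.44, below all others, and the SRG3 cKO arrays of Gpr83 between 8.28 and 8.65, above all others.

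Of the homing receptors, Ccr7, which guides naive and central memory T cells into lymph nodes, rose in RORgt KO cells. Its level (probe set 17268972) was 11.05, 10.72 and 10.81 in the SRG3 cKO arrays, 11.13, 11.18 and 10.92 in the RORgt KO arrays, and 10.70, 10.23 and 10.31 in the WT arrays. Arrays of both knockouts lay above all WT arrays, though SRG3 cKO array 2 (10.72) lay close to WT array 1 (10.70). The difference from WT was 0.66 in RORgt KO cells (1.58-fold, SE 0.13, interval 0.37 to 0.95, limma adjusted p = 0.05, just under the threshold before rounding). In SRG3 cKO cells it was 0.44 (interval 0.16 to 0.73, limma adjusted p = 0.23), and between the knockouts -0.22 (interval -0.50 to 0.07, limma adjusted p = 0.6). The call in RORgt KO cells was kept in 1 of the 9 fits that left out an array, the fit without WT array 1 (limma adjusted p = 0.0181), and in the others the adjusted p lay between 0.0599 and 0.218.

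Cxcr4, the receptor of CXCL12 that retains cells in bone marrow and lymphoid tissue, had the widest spread within a genotype among the 36 genes (SD 0.45 in WT cells). Its values were 9.06, 8.54 and 8.93 in the SRG3 cKO arrays, 9.48, 9.08 and 9.03 in the RORgt KO arrays, and 8.91, 8.03 and 8.32 in the WT arrays. The RORgt KO arrays lay above the WT arrays, and WT array 1 lay within the range of SRG3 cKO cells. The difference from WT was 0.78 in RORgt KO cells (SE 0.22, interval 0.29 to 1.27, limma adjusted p = 0.176) and 0.43 in SRG3 cKO cells (limma adjusted p = 0.512), so neither passed. With the array number as a block the limma adjusted p was 0.0145 in RORgt KO cells and 0.122 in SRG3 cKO cells. Without WT array 1 the difference was 1.02 in RORgt KO cells, with a limma adjusted p of 0.0389. In the other 8 fits that left out 1 array it did not pass (limma adjusted p up to 0.444), and over all 9 it was 0.58 to 1.02. The difference in SRG3 cKO cells was 0.23 without WT array 2 and 0.67 without WT array 1. The other homing receptors did not pass in any comparison. Cxcr5, which guides cells to B cell follicles, differed from WT by 0.08 in SRG3 cKO cells and by 0.22 in RORgt KO cells. Gpr15, a receptor for homing to the large intestine, differed by -0.07 in SRG3 cKO cells and 0.12 in RORgt KO cells, and the small-intestinal receptor gene Ccr9 by -0.02 in SRG3 cKO cells and -0.03 in RORgt KO cells. Ccr10, a receptor of skin and mucosal homing, differed by 0.07 in SRG3 cKO cells and 0.00 in RORgt KO cells.

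Among the CXC, CX3C and XC receptors, Cxcr3, a receptor of interferon-induced chemokines typical of Th1 cells, was lower in SRG3 cKO cells. It was at 7.94, 8.09 and 8.10 in the SRG3 cKO arrays (probe set 17543625), at 8.29, 8.32 and 8.43 in the RORgt KO arrays, and at 8.29, 8.38 and 8.41 in the WT arrays. All SRG3 cKO arrays lay below all 6 others, and RORgt KO and WT arrays overlapped. Against RORgt KO cells the difference was -0.30 (SE 0.06, interval -0.43 to -0.18, limma adjusted p = 0.0395). This call was kept in 1 of the 9 fits that left out an array, without WT array 1 (limma adjusted p = 0.0445), and the adjusted p reached 0.12 in the others. Against WT the difference was -0.32 (interval -0.45 to -0.19), with a limma adjusted p of 0.0525 and, with the array number as a block, 0.018. In RORgt KO cells Cxcr3 differed from WT by -0.01 (interval -0.14 to 0.11, limma adjusted p = 0.946).

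The other 5 genes of this group differed by at most 0.14 in absolute value in any comparison. Cxcr6, a receptor of CXCL16 on effector T cells, was at 6.47 ± 0.07 in SRG3 cKO cells, 6.53 ± 0.11 in RORgt KO cells and 6.41 ± 0.04 in WT cells. Cx3cr1, the fractalkine receptor gene, was at 8.55 ± 0.04 in SRG3 cKO cells, 8.65 ± 0.11 in RORgt KO cells and 8.51 ± 0.05 in WT cells. Arrays of the groups overlapped for both. Cxcr1 and Cxcr2, receptors best known from neutrophils, and Xcr1, known from cross-presenting dendritic cells, had overlapping arrays in every comparison.

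Most atypical receptors bind chemokines without classical G protein signalling. None of the 5 atypical receptor genes passed the limma test. At an unadjusted p under 0.05, 0, 1 and 1 of them passed in the 3 comparisons, where 11.2%, 12.7% and 11.1% of all genes did. Their differences ran from -0.07 to 0.12 in SRG3 cKO cells against WT, from -0.10 to 0.17 in RORgt KO cells against WT and from -0.06 to 0.12 between the knockouts. Ackr3, a scavenger of CXCL12, was 0.10 above WT in SRG3 cKO cells with no overlap of the arrays (limma adjusted p = 0.497). Ackr4, a scavenger of the CCR7 ligands, was 0.17 above WT in RORgt KO cells with no overlap (limma adjusted p = 0.339). Ackr1, the Duffy antigen receptor gene of red cells and endothelium, was dim and stayed between 5.09 and 5.23 over the 9 arrays. Ackr2 (mean over all arrays 8.02) and Ccrl2 (6.81) had overlapping arrays in every comparison.

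No S1P receptor gene passed the limma test. At an unadjusted p under 0.05 there was 1 in each comparison, where 11.2%, 12.7% and 11.1% of all genes passed. S1pr1, the receptor for exit from lymphoid organs, was at 8.87, 9.18 and 8.92 in the SRG3 cKO arrays, 8.73, 9.04 and 8.68 in the RORgt KO arrays, and 8.68, 8.76 and 8.65 in the WT arrays. The SRG3 cKO arrays lay above the WT arrays, and the RORgt KO arrays overlapped with both. The difference from WT was 0.29 in SRG3 cKO cells (interval 0.06 to 0.53, limma adjusted p = 0.343) and 0.12 in RORgt KO cells (limma adjusted p = 0.699). S1pr2, a receptor that inhibits migration, was at 8.66 ± 0.07 in RORgt KO cells against 8.80 ± 0.04 in WT cells, without overlap (-0.14, limma adjusted p = 0.332). S1pr4, found on lymphocytes, was at 8.08 ± 0.20 in SRG3 cKO cells, 8.21 ± 0.13 in RORgt KO cells and 8.06 ± 0.08 in WT cells, with overlapping arrays. S1pr3 and S1pr5, the NK cell S1P receptor gene, differed by at most 0.07 in absolute value in any comparison.

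Of the receptors for other ligands, Gpr83 rose in SRG3 cKO cells. GPR83 is a receptor known from regulatory T cells and the brain, where it has been described as a neuropeptide receptor, so it is not a lipid receptor. Its level (probe set 17514789) was 8.65, 8.28 and 8.36 in the SRG3 cKO arrays, 7.90, 7.79 and 7.82 in the RORgt KO arrays, and 7.77, 7.62 and 7.83 in the WT arrays. All SRG3 cKO arrays lay above all 6 others. Gpr83 was 1.61-fold higher in SRG3 cKO cells (8.43 ± 0.19) than in WT cells (7.74 ± 0.11), a difference of 0.69 (SE 0.09, interval 0.49 to 0.89, limma adjusted p = 0.0179). It was 1.51-fold higher than in RORgt KO cells (7.84 ± 0.06, difference 0.59, interval 0.39 to 0.80, limma adjusted p = 0.0137). RORgt KO cells differed from WT by 0.09 (interval -0.11 to 0.30, limma adjusted p = 0.73). The call against WT was lost without WT array 2 (limma adjusted p = 0.0918), WT array 3 (0.0639) or SRG3 cKO array 3 (0.0716). The call between the knockouts was lost without RORgt KO array 2 (0.0707) or array 3 (0.0553). The sort had removed CD25+ cells, and the 7 regulatory T cell markers averaged 8.67 to 8.78 over the SRG3 cKO arrays and 8.60 to 8.81 over the WT arrays. None of the 7 passed limma in SRG3 cKO cells against WT (1 at an unadjusted p under 0.05), and Foxp3, their defining transcription factor, differed by 0.11 (limma adjusted p = 0.662). Their part in the Gpr83 result was not tested. Gpr83 lies on chromosome 9, as do Smarcc1 and 16 of the 36 measured receptor genes in all. It was the only one of these 16 called in SRG3 cKO cells against WT, where 0.713% of the 1263 named genes on the chromosome were called. The part of DNA linked to the deleted allele in this result was not tested.

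Gpr18, a receptor gene of lymphocytes whose ligand is debated between N-arachidonyl glycine and resolvin D2, rose in RORgt KO cells. Its level (probe set 17309644) was 9.79, 9.68 and 9.53 in the SRG3 cKO arrays, 10.00, 10.08 and 9.91 in the RORgt KO arrays, and 9.64, 9.49 and 9.29 in the WT arrays. The RORgt KO arrays lay above all 6 others, and SRG3 cKO and WT arrays overlapped. The difference from WT was 0.52 in RORgt KO cells (1.44-fold, SE 0.09, interval 0.31 to 0.73, limma adjusted p = 0.037) and 0.20 in SRG3 cKO cells (interval -0.02 to 0.41, limma adjusted p = 0.49). The difference between the knockouts was -0.33 (interval -0.54 to -0.12, limma adjusted p = 0.196) and was not called. In RORgt KO cells the call was kept without WT array 1 (limma adjusted p = 0.0279) or SRG3 cKO array 1 (0.0498), and lost in the other 7 fits that left out an array, with adjusted p up to 0.174.

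P2ry10, a lysophosphatidylserine receptor gene of T cells, was higher in array 1 than in the other arrays of each genotype. It was at 8.63, 8.07 and 8.08 in the SRG3 cKO arrays, 8.53, 8.25 and 8.20 in the RORgt KO arrays, and 8.10, 7.69 and 7.74 in the WT arrays. The SRG3 cKO and WT arrays overlapped, through WT array 1 alone, and the RORgt KO arrays lay above the WT arrays. The difference from WT in SRG3 cKO cells was 0.42 (SE 0.16, interval 0.05 to 0.78), with a limma adjusted p of 0.395 and, with the array number as a block, 0.0268. Without SRG3 cKO array 1 the difference was 0.23. In RORgt KO cells it was 0.49 (interval 0.12 to 0.85), with a limma adjusted p of 0.259 and, with the array number as a block, 0.00881. With the block in all 9 arrays, the receptor genes called in SRG3 cKO cells against WT were 3 of 36, Gpr83, Cxcr3 and P2ry10, where 0.879% of all genes were called. With the block in a fit of SRG3 cKO and WT alone, 0 of 36 were called.

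Ptger4, the prostaglandin E2 receptor gene EP4, which promotes Th17 responses, was at 9.25, 9.33 and 9.19 in the SRG3 cKO arrays, 9.11, 9.17 and 9.04 in the RORgt KO arrays, and 9.07, 9.25 and 9.12 in the WT arrays. Knockout and WT arrays overlapped, and the difference from WT was 0.11 in SRG3 cKO cells and -0.04 in RORgt KO cells (limma adjusted p = 0.518 and 0.842). The SRG3 cKO arrays lay above the RORgt KO arrays, by 0.15 on average (limma adjusted p = 0.369). Gpr183, the oxysterol receptor gene that positions activated T cells at the follicle border, was at 9.24, 9.38 and 9.09 in the SRG3 cKO arrays, 9.08, 9.35 and 9.04 in the RORgt KO arrays, and 9.40, 9.39 and 9.19 in the WT arrays. Its groups overlapped too, with differences from WT of -0.09 in SRG3 cKO cells and -0.17 in RORgt KO cells (limma adjusted p = 0.784 and 0.536). Gpr65, a proton-sensing receptor gene and so no lipid receptor, was the brightest of the receptor probe sets, at 11.62 ± 0.08 in SRG3 cKO cells, 11.66 ± 0.10 in RORgt KO cells and 11.49 ± 0.09 in WT cells. Its RORgt KO arrays did not overlap with WT, and the difference was 0.18 (limma adjusted p = 0.312). Ptger2, the EP2 receptor gene, and Ltb4r1, the leukotriene B4 receptor gene, differed by at most 0.04 in absolute value in any comparison.

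Array 1 was the highest array of all 3 genotypes for 5 of the 36 receptor genes, Ccr8, Cxcr4, Ccrl2, S1pr4 and P2ry10, which was so for 7.23% of all genes. The part of the array number in the results of Cxcr4 and P2ry10 beyond the fits given here was not tested. Without the 3 arrays numbered 1, a fit of 6 arrays chosen after seeing the data, Ccr6 differed from WT by -0.67 in RORgt KO cells (limma adjusted p = 0.0631) and between the knockouts by 0.71 (0.0626). Gpr83 differed from WT by 0.60 in SRG3 cKO cells (0.173) and between the knockouts by 0.52 (0.12), Gpr18 from WT by 0.61 in RORgt KO cells (0.144), Ccr7 by 0.78 (0.0801) and Cxcr3 between the knockouts by -0.29 (0.18). All of these kept their direction and lost their call. P2ry10, at 0.51 in RORgt KO cells against WT, passed in that fit (limma adjusted p = 0.042).

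**Figure D3:**
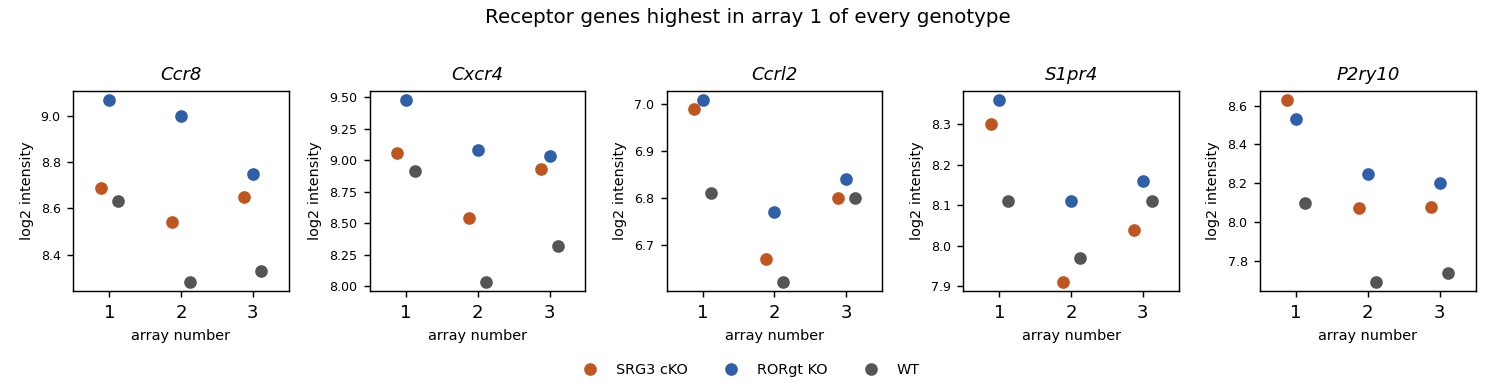
Log2 intensity by array number for the 5 receptor genes whose highest array was number 1 in every genotype, with SRG3 cKO, RORgt KO and WT as colours and an axis per panel that does not start at 0. Cxcr4 in WT cells was at 8.91 in array 1, against 8.03 and 8.32 in arrays 2 and 3.

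Genes that act with these receptors were looked at by list. Of 24 measured genes for receptor signalling and its regulators, 1 rose in SRG3 cKO cells and 1 rose and 1 fell in RORgt KO cells against WT, with median differences of 0.04 in SRG3 cKO cells and 0.01 in RORgt KO cells, beside -0.01 and 0.00 over all genes. Pik3r5, the regulatory subunit of phosphoinositide 3-kinase γ downstream of Gβγ, was at 8.93, 9.03 and 8.91 in the SRG3 cKO arrays, 8.88, 8.99 and 8.84 in the RORgt KO arrays, and 8.69, 8.46 and 8.40 in the WT arrays. Arrays of both knockouts lay above all WT arrays. It rose by 0.44 in SRG3 cKO cells and by 0.39 in RORgt KO cells (limma adjusted p = 0.0443 and 0.0473), and each call was kept in 1 of the 9 fits that left out an array, the fit without WT array 1.

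Grk5, a kinase that desensitises G protein-coupled receptors, was at 7.20, 7.29 and 7.23 in the SRG3 cKO arrays, 6.87, 7.13 and 6.89 in the RORgt KO arrays, and 7.44, 7.64 and 7.60 in the WT arrays. The 3 genotypes did not overlap. Grk5 fell by 0.60 in RORgt KO cells against WT (SE 0.08, limma adjusted p = 0.0112). That call was lost without WT array 2 (0.0602), WT array 3 (0.0515) or RORgt KO array 1 (0.0546). In SRG3 cKO cells the difference from WT was -0.32, with a limma adjusted p of 0.144 and, with the array number as a block, 0.0391. Rgs16, which speeds up the shut-off of Gα signals, was 0.39 higher in SRG3 cKO cells than in RORgt KO cells (limma adjusted p = 0.0177), a call lost without any of the 3 SRG3 cKO arrays (adjusted p 0.0621 to 0.0757). Against WT, Rgs16 differed by 0.08 in SRG3 cKO cells and by -0.31 in RORgt KO cells (limma adjusted p = 0.705 and 0.0545).

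Of 21 measured genes of the movement machinery, none passed in either knockout against WT by limma (6 in SRG3 cKO and 4 in RORgt KO cells at an unadjusted p under 0.05). Between the knockouts Dock8, an activator of CDC42 in migrating T cells, was 0.24 higher in SRG3 cKO cells (limma adjusted p = 0.0432), and this call was lost in all 9 fits that left out an array. Among 12 measured regulators of receptor genes or of receptors at the surface, Cd44, an adhesion receptor for hyaluronan and an activation marker, fell in SRG3 cKO cells. Its level was 8.48, 8.65 and 8.53 in the SRG3 cKO arrays, 8.77, 8.90 and 8.77 in the RORgt KO arrays, and 8.96, 8.97 and 8.81 in the WT arrays. The SRG3 cKO arrays were the lowest (difference from WT -0.36, limma adjusted p = 0.0488), and the call was lost in all 9 fits that left out an array. Klf2, the transcription factor that drives S1pr1 in T cells, differed from WT by 0.13 in SRG3 cKO cells and by 0.18 in RORgt KO cells (limma adjusted p = 0.344 and 0.131). Cd69, which removes S1PR1 from the surface, differed by -0.01 in SRG3 cKO cells and -0.18 in RORgt KO cells. None of 14 measured genes for enzymes that make or degrade lipid ligands passed in any comparison by limma (2, 0 and 0 at an unadjusted p under 0.05). The oxysterol enzyme gene Ch25h differed from WT by -0.16 in SRG3 cKO cells and Hpgd, which degrades prostaglandins, by -0.12 in RORgt KO cells.

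Among 32 measured chemokine genes, 1 fell in each knockout against WT, and 4 differed between the knockouts. Ccl3, a ligand of CCR1, was at 9.24, 9.16 and 9.33 in the SRG3 cKO arrays, 10.63, 10.22 and 10.57 in the RORgt KO arrays, and 10.41, 10.01 and 10.28 in the WT arrays. The SRG3 cKO arrays lay below all 6 others. Ccl3 fell 1.99-fold in SRG3 cKO cells against WT (-0.99, SE 0.12, limma adjusted p = 0.0128), a call lost without WT array 3 (0.0748) or without any of the SRG3 cKO arrays (0.0530 to 0.0747). Against RORgt KO cells the difference was -1.23 (limma adjusted p = 0.00128), and this call held whichever array was left out.

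Cxcl3, a ligand of CXCR2, was at 6.71, 7.05 and 6.66 in the SRG3 cKO arrays, 5.52, 6.03 and 5.34 in the RORgt KO arrays, and 6.56, 6.49 and 6.58 in the WT arrays. The RORgt KO arrays were the lowest. Cxcl3 fell by 0.91 in RORgt KO cells against WT (limma adjusted p = 0.0331), a call lost in 7 of the 9 fits that left out an array (adjusted p up to 0.137), and it was 1.18 higher in SRG3 cKO than in RORgt KO cells (0.00763). Ccl4 and Ccl5, ligands made by activated and cytotoxic T cells, were lower in SRG3 cKO than in RORgt KO cells by limma (differences -0.63 and -0.28, adjusted p = 0.0164 and 0.0498). The Ccl4 call was lost without SRG3 cKO array 1 or 3 or RORgt KO array 1 or 3 (0.0553 to 0.0785), and the Ccl5 call in all 9 fits that left out an array. Against WT, Ccl4 differed by -0.35 in SRG3 cKO and 0.28 in RORgt KO cells (limma adjusted p = 0.221 and 0.288). Ccl5 differed from WT by -0.01 in SRG3 cKO and 0.27 in RORgt KO cells (limma adjusted p = 0.969 and 0.0652). Ccl20, the ligand of CCR6, singled out here after its values were seen, was at 7.83, 7.59 and 7.83 in the SRG3 cKO arrays, 7.85, 7.97 and 7.77 in the RORgt KO arrays, and 8.02, 7.85 and 8.25 in the WT arrays. The SRG3 cKO arrays lay below the WT arrays, and RORgt KO and WT arrays overlapped. Ccl20 differed from WT by -0.29 in SRG3 cKO cells and -0.18 in RORgt KO cells (limma adjusted p = 0.328 and 0.521).

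Of 25 measured receptor genes related to these but not on the list, Gpr171, a peptide receptor gene of T cells, was the only one called. It was at 9.61, 9.84 and 9.70 in the SRG3 cKO arrays, 10.50, 10.46 and 10.49 in the RORgt KO arrays, and 10.11, 10.25 and 10.37 in the WT arrays, so that the 3 genotypes did not overlap. It fell by 0.53 in SRG3 cKO cells against WT (SE 0.07, limma adjusted p = 0.0216) and was 0.77 lower than in RORgt KO cells (log2 difference -0.77, limma adjusted p = 0.000996). The call against WT was lost without WT array 2 (0.0993), WT array 3 (0.0803), SRG3 cKO array 1 (0.0852) or SRG3 cKO array 3 (0.0943), and the other held in all 9 such fits. Cysltr1, a cysteinyl leukotriene receptor gene named after its values were seen, was at 8.15, 7.47 and 7.84 in the SRG3 cKO arrays, 7.88, 7.14 and 7.47 in the RORgt KO arrays, and 8.61, 8.17 and 8.65 in the WT arrays. Both knockouts lay below WT, with differences of -0.66 in SRG3 cKO cells and -0.98 in RORgt KO cells (limma adjusted p = 0.294 and 0.0779). With the array number as a block the adjusted p in SRG3 cKO cells was 0.0157.

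**Figure D4:**
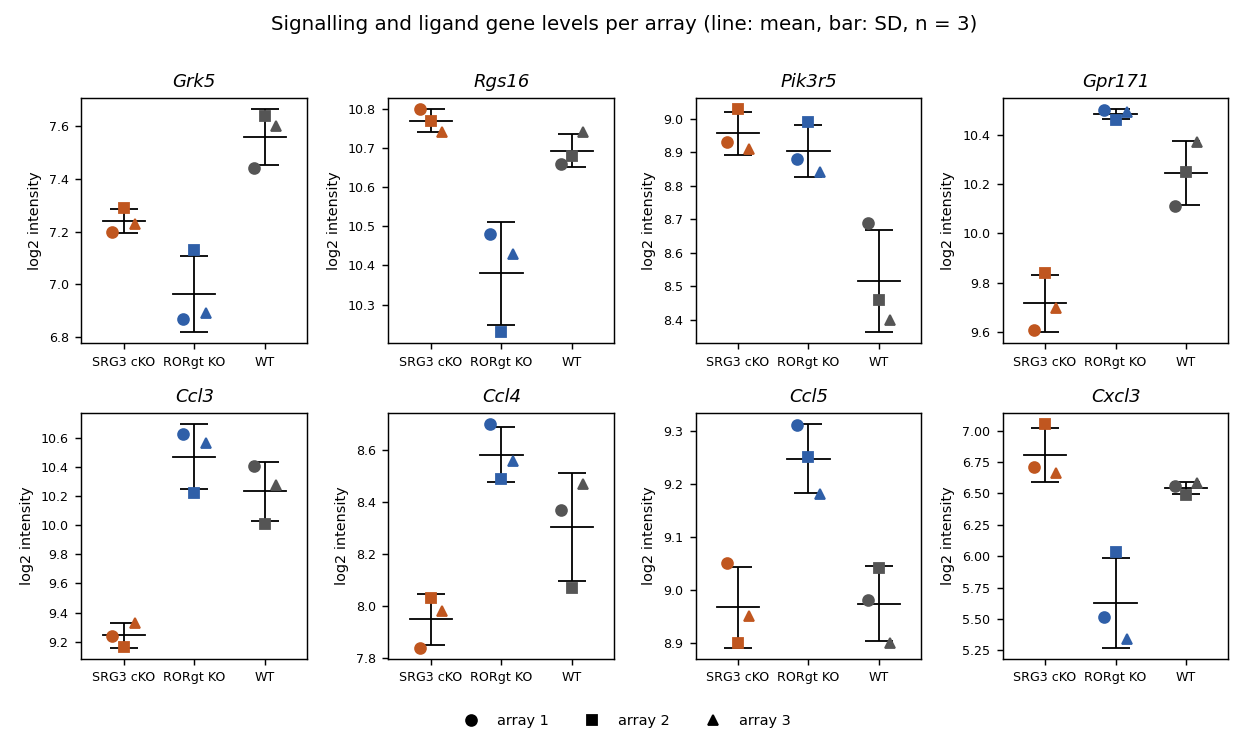
Log2 intensity per array of 4 genes of receptor signalling or related receptors (top) and 4 chemokine genes (bottom), by genotype, with the group mean as a line and the SD as a bar (n = 3) and an axis per panel that does not start at 0. The SRG3 cKO arrays of Ccl3 lie between 9.16 and 9.33, below all others, and the RORgt KO arrays of Cxcl3 between 5.34 and 6.03.

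Markers of T cell states and of other cells were read beside these results. The 8 measured naive T cell markers averaged 9.32 to 9.36 over the SRG3 cKO arrays, 9.40 to 9.51 over the RORgt KO arrays and 9.14 to 9.21 over the WT arrays. In RORgt KO cells, where Ccr7 rose, 2 of them rose by limma, Il7r (0.95, adjusted p = 0.00135) and Igfbp4 (0.50, adjusted p = 0.0123). In SRG3 cKO cells none was called (7 at an unadjusted p under 0.05), and with the array number as a block Dapl1 was (0.48, adjusted p = 0.0467). The 7 regulatory T cell markers averaged 8.99 to 9.17 over the RORgt KO arrays against 8.60 to 8.81 over the WT arrays. Of these, Tigit and Nt5e rose in RORgt KO cells (0.72 and 1.16, limma adjusted p = 0.014 and 0.0267), and Foxp3 differed by 0.31 (0.138). The 7 measured markers of NK, CD8 and γδ T lymphocytes averaged 6.95 to 6.98 in SRG3 cKO cells, 7.10 to 7.17 in RORgt KO cells and 6.98 to 7.02 in WT cells. Among them Klrd1 rose in RORgt KO cells (0.91, limma adjusted p = 0.0202), from a WT mean of 5.96, below the 25th percentile of all values (6.12). The part of these cells in the receptor results was not tested. None of the 4 Th2, 7 B cell, 10 myeloid or 9 T cell identity markers measured was called in any comparison by limma, and at an unadjusted p under 0.05 there were at most 2, 1, 2 and 4 in a comparison. Of 6 Tfh markers none was called against WT (4 in SRG3 cKO and 2 in RORgt KO cells unadjusted), and Sh2d1a was 0.32 higher in SRG3 cKO than in RORgt KO cells (limma adjusted p = 0.0123). Of 11 Th17 markers, 5 fell in SRG3 cKO cells, namely Il17a, Il17f, Il22, Cd5l and Il23r. With the array number as a block, Il23r (limma adjusted p = 0.0451 without it) was not called (0.0552). In RORgt KO cells these 5 and Il1r1 fell, 6 in all, and 2 rose, Rora and Ahr. Il22 was dim, with means of 3.2 in SRG3 cKO, 3.19 in RORgt KO and 3.7 in WT cells. The 7 Th1 markers averaged 8.51 to 8.57 in SRG3 cKO cells, where Cxcr3 was low, 8.68 to 8.77 in RORgt KO cells and 8.42 to 8.46 in WT cells. Of these, Il18r1 rose in SRG3 cKO cells and Il12rb2 and Nkg7 rose in RORgt KO cells.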

How the data were processed

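Groups and culture were taken from the labels. The values are log2 probe set intensities as deposited by the authors for 9 GeneChip arrays with 41345 probe sets. The background correction, probe summary and normalization are not given in the sources used here. The number of arrays limits the precision. All sample columns were used (0 left out).

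A single gene symbol was given for 23521 probe sets, which were used, several for 1814 and none for 16010. Symbols were updated by gene ID (23328 matched) with a RefSeq table of assembly GRCm38.p6, and the brightest probe set was taken for each of 1082 genes with more than 1. For the 22180 genes, limma 3.58.1 (R 4.3.3) was run as a single fit of all 9 arrays, Benjamini-Hochberg adjusted per comparison at a threshold of 0.05. The procedure was also run on simulated data in which the arrays varied independently. That run did not cover deviations shared by arrays of the same number.

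Arrays with the same number deviated together in SRG3 cKO and WT (correlations 0.287, 0.186 and 0.116, against -0.234 to 0.0772 for unlike numbers). They were taken as paired, so the value with the array number as a block stands beside those results where it changes a call. The main counts, SEs and intervals come from the fit without the block. For RORgt KO and WT the same-number correlations were 0.215, -0.00527 and 0.186 (unlike numbers -0.288 to 0.131). For SRG3 cKO and RORgt KO they were 0.223, -0.00544 and 0.137 (unlike numbers -0.246 to 0.148). Arrays of these 2 comparisons were not taken as paired, and the calls that the block added there are given below.

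The receptor genes and the lists were chosen with earlier results of these data known. Values in every array are given for receptor genes called in any comparison with or without the block, for the 5 largest differences of each comparison, and for Ccr6, Ccr7, Cxcr3, Cxcr4, S1pr1, Gpr183 and Ptger4. From other lists the called genes are named. For the lipid ligand enzymes, which had none, the largest difference of each knockout from WT is given. Marker lists with no call are given by counts only. Further genes given by array, such as Ccr3, and Klf2, Cd69, Ccl20 and Cysltr1 were added after values were seen. Alternatives covered normalization, filters, variance models, the arrays in the fit and the block. The 4 erythroid markers had no probe set of their own and are not analysed here.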

Additional observations from a re-analysis of the deposited data

How the results depend on the processing

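With only the 2 groups compared in the fit, limma called 0 receptor genes in SRG3 cKO against WT (4 at an unadjusted p under 0.05, beside 2178 of all genes), 1 in RORgt KO against WT and 1 between the knockouts, where all 9 arrays gave 1, 3 and 3. The counts over all genes were then 13, 43 and 142, where all 9 arrays gave 116, 230 and 283. Adding the replicate block to these fits gave 0 receptor genes of 32 genes called in SRG3 cKO against WT (10 unadjusted, beside 2954 of all genes). It gave 2 of 63 genes in RORgt KO against WT and 2 of 131 genes between the knockouts. The replicate block in all 9 arrays gave 3, 6 and 4 receptor genes of 195, 374 and 368 genes. It added Ccr8 (adjusted p = 0.0183), Cxcr4 (0.0145) and P2ry10 (0.00881) in RORgt KO against WT and Gpr18 (0.033) between the knockouts, and it changed no call of the 36 receptor genes beyond these and those given above. Among the listed genes outside the 36, it also added calls in RORgt KO against WT. These were Cysltr1 (adjusted p = 0.00193), Rhoh (0.00763), Pdcd1 (0.0246), H2-Ab1 (0.0296), Ccl5 (0.0417), Foxo1 (0.0449), Rgs16 (0.0479) and Arrb1. Between the knockouts it added Igfbp4 (0.028), Il21 (0.0377), Cd44 (0.0426), Grk5 (0.0447) and Lef1. In SRG3 cKO against WT, quantile normalization, an intensity trend, and filters at the 25th percentile or at the median each gave 2 receptor genes, with Cxcr3 as the added gene. Over all genes these settings gave 100, 143, 148 and 196. The filters left 17843 and 12173 genes to test. In RORgt KO against WT, limma called Ccr8 with quantile normalization (adjusted p = 0.05, just under the threshold before rounding) and the intensity trend (0.0459). It also did so with array weights (0.0382) and with both filters (0.0379 and 0.0266). These settings gave 3, 4, 4, 4 and 4 receptor genes of 238, 254, 244, 277 and 348 genes. Without the 3 arrays numbered 1 limma called 0, 1 and 0 receptor genes of 1, 25 and 16 genes. At an unadjusted p under 0.05 there were 6, 10 and 11 receptor genes, beside 2319, 2997 and 1998 of all genes.

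Leaving out each array in turn gave 0 to 1, 1 to 5 and 1 to 3 receptor genes. The 0 in SRG3 cKO against WT came without WT array 2, WT array 3 or SRG3 cKO array 3, where 28, 23 and 22 genes were called. At an unadjusted p under 0.05 these 3 fits gave 5, 3 and 6 receptor genes, beside 2053, 1782 and 2249 of all genes. The 5 in RORgt KO against WT came without WT array 1, where 322 genes were called. Over all genes the 9 fits that left out an array gave 18 to 87, 45 to 322 and 138 to 261. Differences near 0 changed sign. Ccr6 in SRG3 cKO against WT was 0.00 with quantile normalization and -0.02 to 0.07 in these fits. Cxcr3 (-0.06 to 0.02) and Ptger4 (-0.08 to 0.01) did so in RORgt KO against WT and P2ry10 (-0.25 to 0.03) between the knockouts. Ccr7 in RORgt KO against WT also lost its call with quantile normalization (adjusted p = 0.0535), robust variances (0.0516) and averaged probe sets of a gene (0.0509). Apart from the fits described, the causes were not tested. With 3 arrays a group, dim probe sets such as Ccr3 and Ackr1 limit what can be seen.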
